A study of Homo sapiens with 4 samples.

Results

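The 9 genes described here encode enzymes of the citric acid cycle and their isocitrate and malate dehydrogenase relatives, and were chosen by symbol (CS, IDH1, IDH2, IDH3A, OGDH, SUCLG1, FH, MDH1 and MDH2) from a table of 18650 expressed loci. The RNA came from 2 human lines, HT-29, established from a colorectal adenocarcinoma, and NCM460, a colon epithelial line that the study used as its normal counterpart. Each line was left untreated (control) or given sturgeon chondroitin sulfate (SCS), a sulfated polysaccharide of cartilage, at 100 μg/mL for 24 h. Each of these 4 conditions had 1 library and no replicate, so no test between control and SCS within a line was possible. CS stands here for the gene of citrate synthase and SCS for the treatment.

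The citric acid cycle runs in the mitochondrial matrix, where it oxidizes acetyl groups and passes electrons to the respiratory chain. Several of its steps have a cytosolic counterpart encoded by a separate gene. IDH1 in the cytosol and IDH2 in the matrix convert isocitrate to 2-oxoglutarate with production of NADPH, whereas the NAD-dependent enzyme of the cycle itself, of which IDH3A is the catalytic subunit, is a different protein. MDH1 and MDH2 interconvert malate and oxaloacetate on either side of the inner membrane and carry reducing equivalents across it in the malate-aspartate shuttle. Colon epithelial cells draw much of their energy from mitochondrial oxidation, and tumor cells often use citrate and isocitrate in the cytosol for lipid synthesis and NADPH.

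The total was 1654764 and 1605372 fragments (sequenced read pairs) in the HT-29 control and HT-29 with SCS, and 1347854 and 1156568 in the matching NCM460 libraries. Transcripts of the mitochondrial genome made up 35.8%, 13.8%, 62.3% and 46.3% of these in the same order, a share that was lower with SCS in both lines. Its part in the values below was not tested. Of 12 markers of colon epithelium, 6 (KRT20, VIL1, CDX1, LGALS4, CEACAM5 and CDH17) had 0 fragments in both NCM460 libraries, while the keratins KRT8, KRT18 and KRT19 were abundant there. CDX1 and CDX2, which encode intestinal transcription factors, were at 0 in both HT-29 libraries. By the rule given below, 16.8% of all loci were called higher and 14.8% lower in HT-29, and 15.3% and 13.7% in NCM460. Of the 12 markers of colon epithelium, 9 were compared in HT-29, where 4 were called higher and 4 lower with SCS. In NCM460, 6 were compared, and 1 was called higher and 3 lower. The lowest and highest were VIL1 (138 and 24 fragments, log2 fold change -2.65) and the locus shared by CEACAM5 (10 and 95 fragments, 2.80) in HT-29, and KRT18 (548 and 372, -1.03) and EPCAM (36 and 126, 1.29) in NCM460, and KRT8, KRT18 and KRT19 were called lower in both lines. With the trend on GC content described below subtracted, KRT8 (-0.26), KRT18 (-0.60) and KRT19 (0.08) moved less in NCM460. There 1 marker was then called higher and 1 lower, beside 5.88% and 5.96% of all loci, and in HT-29 the counts stayed at 4 and 4. The summed level of the 12 markers went from 6530 to 3574 CPM in HT-29 and from 4346 to 2659 CPM in NCM460. These sums were not corrected for GC content, and their part in the members' values was not tested. CPM are fragment rates scaled for the depth and composition of each library (TMM). The sum over 9 mesenchymal markers was 3.42 CPM in the HT-29 control and 7.07 CPM with SCS, and 116 and 122 CPM in NCM460, mostly from SPARC. None of the 3 mesenchymal markers compared in HT-29 or the 6 in NCM460 was called, VIM (-0.93) and COL1A1 (0.52) being lowest and highest in NCM460. PTPRC, CD3E and CD14, which mark blood cells, were at 0 in all 4 libraries, and CD68 shares its values with 7 neighboring genes. In bulk RNA, fewer cells of a type and less RNA per cell cannot be told apart.

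The upstream sequences of IDH1 and FH are shown because these members had the highest log2 fold change of the 9 in HT-29 and in NCM460, respectively. Both come from RefSeq on GRCh38.p14, read 5′ to 3′ on the minus strand, and hold no annotated exon. The IDH1 stretch is chr2:208255134-208255246, which ends 62 bases before the upstream of its RefSeq starts, and the FH stretch is chr1:241519762-241520005, which ends 6 bases before its start. Capitals mark matches on either strand to the GC box GGGCGG, the CCAAT box and the antioxidant response element core TGACNNNGC, the last of which overlaps a GC box in IDH1.
IDH1: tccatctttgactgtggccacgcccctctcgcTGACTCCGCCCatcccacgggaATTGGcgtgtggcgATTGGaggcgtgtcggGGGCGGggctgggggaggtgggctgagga
FH: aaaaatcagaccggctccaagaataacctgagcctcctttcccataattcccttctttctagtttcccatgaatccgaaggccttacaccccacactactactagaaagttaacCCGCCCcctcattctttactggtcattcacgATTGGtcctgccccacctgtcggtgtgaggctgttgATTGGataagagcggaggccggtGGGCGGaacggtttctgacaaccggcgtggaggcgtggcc
The IDH1 stretch held 2 GC boxes, 2 CCAAT boxes and 1 TGACNNNGC, and the FH stretch held 2 GC boxes, 2 CCAAT boxes and no TGACNNNGC. The 250 bases before the downstream IDH1 start (chr2:208254459-208254708), not printed, held 1 GC box and neither of the others. Among 35116 windows of 250 bases before RefSeq gene starts, 42.6% held a GC box, 32.0% a CCAAT box and 10.9% a TGACNNNGC, and the stretches shown are shorter, at 113 and 244 bases. The sterol response element core TCACNCCAC (in 0.883% of the windows) and the amino acid response element core TGATGNAA (in 3.14%) had no match in either stretch. A match describes these letters and shows neither binding nor a cause.

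The first question was how the members changed with SCS in each line. A locus was called when its level differed by more than 1.5-fold between the control and SCS libraries of a line and the 95% interval of the change excluded 0. The interval covers counting error only. In HT-29, 1 of the 9 members (IDH1) was called higher and 4 (IDH2, IDH3A, FH and MDH2) were called lower. Of all 12168 loci compared in this line, 16.8% were called higher and 14.8% lower. In NCM460, 3 members (IDH1, FH and MDH1) were called higher and 2 (OGDH and MDH2) lower, beside 15.3% higher and 13.7% lower of 12657 loci. The median log2 fold change of the members was -0.27 in HT-29 and 0.39 in NCM460, where those of all loci were 0.07 and 0.03. The fragments were also thinned to the smallest nuclear total in a single random draw, and no further draws were made. IDH2, IDH3A and MDH2 were then no longer called in HT-29, which left 2 members. At that depth 10.6% of all loci were called higher and 10.9% lower. MDH2 lost its HT-29 call also by total fragments and by FPKM.

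**Figure D1:**
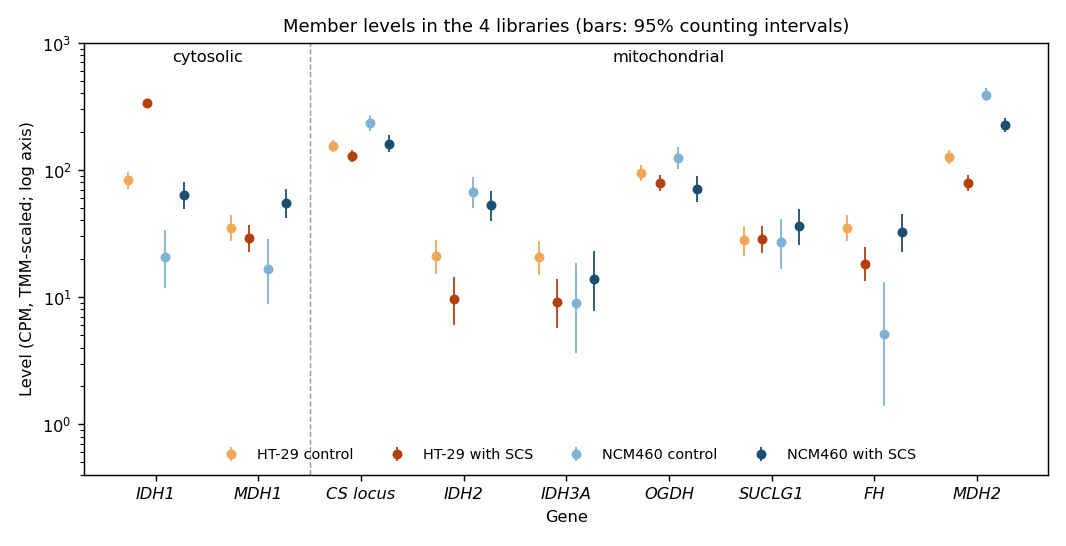
Level of each member in the 4 libraries, in TMM-scaled CPM on a log axis, with points for the libraries and bars for 95% counting intervals. IDH1 lies at 332 CPM in HT-29 with SCS, above its 3 other libraries, and FH lies lowest in the NCM460 control at 5.14 CPM.

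IDH1 encodes the cytosolic NADP-dependent isocitrate dehydrogenase and is the member that was called higher in both lines. It had 169 fragments in the HT-29 control and 799 in HT-29 with SCS, and 16 and 69 in the NCM460 libraries. Scaled, these are 82.6 and 332 CPM in HT-29 and 20.5 and 63.8 CPM in NCM460, so that the HT-29 control already lay above both NCM460 libraries. The log2 fold change was 2.0 (95% counting interval 1.77 to 2.26) in HT-29, a 3.99-fold higher level, and 1.54 (0.83 to 2.52) in NCM460, a 2.91-fold higher level. IDH1 is also among the genes that the study itself listed as changed in HT-29, so its direction there is not independent evidence. The FPKM that the study listed for IDH1 differ from the deposited ones used here, 30.5 in the HT-29 control and 103 with SCS. The change that the study listed was also smaller. How its listed values were obtained was not established. The gene (ENSG00000138413) spans chr2:208236227-208266074 on the minus strand, in the GRCh38 coordinates of the table. Its antisense neighbor IDH1-AS1 had 0 fragments in every library but NCM460 with SCS, where it had 2.

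MDH1 encodes the cytosolic malate dehydrogenase (ENSG00000014641, chr2:63588609-63607197, plus strand). Its 4 libraries had 72 and 70 fragments in HT-29, control and SCS, and 13 and 59 in NCM460. The NCM460 control at 16.7 CPM was the low library, and the other 3 lay between 29.1 and 54.6 CPM. MDH1 was called higher in NCM460, at a log2 fold change of 1.59 (0.83 to 2.70), and not in HT-29, where it was -0.27 (-0.77 to 0.22). Exons of WDPCP on the opposite strand overlap MDH1, with 13, 19, 4 and 9 fragments of their own, and reads of the shared part cannot be told apart without strand. Of the 2 cytosolic members, 1 was thus called higher in HT-29 and 2 in NCM460.

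Among the 7 mitochondrial members none was called higher in HT-29 and 4 were called lower, with a median log2 fold change of -0.68 and a range from -1.09 to 0.04. Summed over these 7, the level was 482 CPM in the HT-29 control and 352 CPM with SCS. In NCM460 the sum was 858 CPM in the control and 593 CPM with SCS, and 1 member was called higher and 2 lower, with a median of -0.33. Over all loci, 16.8% were called higher and 14.8% lower in HT-29, and 15.3% and 13.7% in NCM460. The NCM460 sums rest on 668 and 641 fragments and were not corrected for GC content. With the trend on GC content described below subtracted, 1 of the 7 was called higher and none lower in NCM460, beside 5.88% and 5.96% of all loci.

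CS, citrate synthase, joins acetyl-CoA to oxaloacetate and opens the cycle (ENSG00000062485, chr12:56271699-56300392, minus strand). In the table it shares identical values with CNPY2, PAN2 and RP11-977G19.10, so that its own level is uncertain. The shared locus had 317 and 309 fragments in HT-29 and 183 and 174 in NCM460, control and SCS. It was called in neither line, its log2 fold change being -0.27 (-0.50 to -0.04) in HT-29 and -0.54 (-0.85 to -0.24) in NCM460, and both intervals lay below 0.

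IDH2, the NADP-dependent isocitrate dehydrogenase of the matrix (ENSG00000182054, chr15:90083045-90102504, minus strand), had 43 and 23 fragments in HT-29 and 52 and 57 in NCM460. Its HT-29 level was 21.0 CPM in the control and 9.57 CPM with SCS, and both NCM460 libraries were higher, at 66.8 and 52.7 CPM. The log2 fold change in HT-29 was -1.07 (-1.93 to -0.37), called lower, and in NCM460 it was -0.33 (-0.91 to 0.23), not called. IDH3A, the catalytic subunit of the NAD-dependent enzyme (ENSG00000166411, chr15:78131498-78171949, plus strand), had 42 and 22 fragments in HT-29 and 7 and 15 in NCM460. It was called lower in HT-29, at -1.09 (-1.98 to -0.39), and with so few fragments the NCM460 interval ran from -0.76 to 2.16 around 0.52. Exons of CIB2 (1, 0, 16 and 17 fragments) and ACSBG1 (31, 21, 1 and 6 fragments) on the other strand overlap IDH3A, whose values are uncertain to that extent.

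OGDH is the decarboxylating subunit of the 2-oxoglutarate dehydrogenase complex, the step after the isocitrate dehydrogenases (ENSG00000105953, chr7:44606572-44709066, plus strand). It had 195 and 189 fragments in HT-29 and 97 and 77 in NCM460. The NCM460 control was the highest library at 125 CPM, and the other 3 lay between 71.2 and 95.3 CPM. The log2 fold change was -0.79 (-1.26 to -0.36) in NCM460, called lower, and -0.27 (-0.57 to 0.02) in HT-29. SUCLG1 encodes the alpha subunit of succinyl-CoA ligase, which makes the nucleotide triphosphate of the cycle (ENSG00000163541, chr2:84423523-84460045, minus strand). With 57 and 69 fragments in HT-29 and 21 and 39 in NCM460, its levels of 27.0 to 36.1 CPM spanned the narrowest range of the 9 members. It was not called in either line, at 0.04 (-0.48 to 0.58) in HT-29 and 0.39 (-0.38 to 1.26) in NCM460.

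FH, fumarase, hydrates fumarate to malate and has a cytosolic form from the same gene, so it cannot be assigned wholly to the matrix (ENSG00000091483, chr1:241497603-241519761, minus strand). It had 72 fragments in the HT-29 control and 44 with SCS, but 4 in the NCM460 control and 35 with SCS. FH was called in opposite directions in the lines. The log2 fold change was -0.91 (-1.52 to -0.38) in HT-29 and 2.24 (1.17 to 4.61) in NCM460, where its level went from 5.14 to 32.4 CPM and thus rested on 4 fragments in the control. The processed pseudogene FHP1 had no value apart from the DGKH locus. That shared locus had 187 and 299 fragments in HT-29 and 7 and 33 in NCM460, control and SCS. Whether reads of FH and FHP1 were mixed was not tested. MDH2, the malate dehydrogenase of the matrix that closes the cycle (ENSG00000146701, chr7:76048051-76067508, plus strand), had 260 and 190 fragments in HT-29 and 304 and 244 in NCM460. MDH2 is the mitochondrial member that was called lower in both lines, at -0.68 (-0.96 to -0.41) in HT-29 and -0.79 (-1.04 to -0.54) in NCM460. Neither call held in all 11 processing settings given at the end, with 8 in HT-29 and 9 in NCM460. The MDH2 levels were 127 and 79.1 CPM in HT-29 and 390 and 226 CPM in NCM460.

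In NCM460 the change with SCS moved with the GC content of the transcripts. Over 9356 loci the Spearman rho of log2 fold change on GC content was -0.72 in NCM460, against -0.15 over 9340 loci in HT-29. These are descriptions across loci, which share their libraries. The members called higher in NCM460 have transcripts of 43.1% (IDH1), 43.7% (FH) and 45.9% (MDH1) GC, and those called lower have 52.3% (MDH2) and 56.3% (OGDH). With the trend of all loci on GC content subtracted, IDH1, FH and MDH1 were still called higher, at 0.79 (0.09 to 1.77), 1.56 (0.49 to 3.93) and 1.18 (0.42 to 2.29). OGDH at -0.24 (-0.71 to 0.19) and MDH2 at -0.48 (-0.74 to -0.24) were then not called, and the median of the 9 members was -0.15. After this subtraction 5.88% of 12600 loci were called higher and 5.96% lower. In HT-29 the same subtraction left 1 member called higher and 4 lower, beside 14.9% higher and 15.7% lower of 12106 loci, and IDH1 at 1.89. Whether the trend in NCM460 came from the libraries or from the cells cannot be told apart with 1 library per condition.

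**Figure D2:**
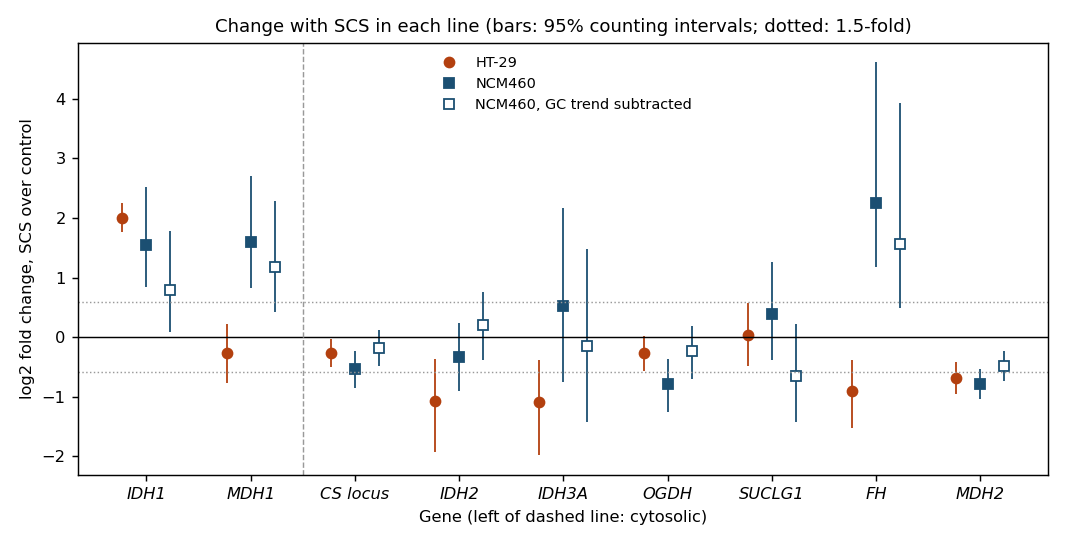
log2 fold change of SCS over control for each member in HT-29 (circles), in NCM460 (filled squares) and in NCM460 with the GC trend subtracted (open squares), with bars for 95% counting intervals and dotted lines at 1.5-fold. IDH1 is above the upper dotted line in all 3 series, FH points down in HT-29 (-0.91) and up in NCM460 (2.24), and MDH2 lies inside the dotted lines once the trend is subtracted.

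**Figure D3:**
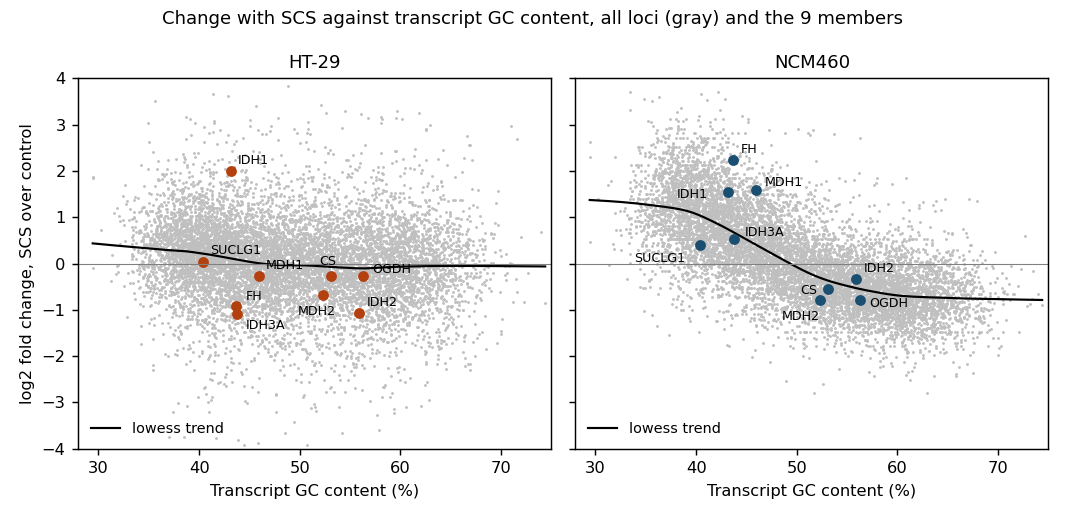
log2 fold change of SCS over control against transcript GC content in percent for all loci of at least 5 CPM (gray), with the lowess trend (line) and the 9 members (large points). Loci beyond the axis limits are not drawn. The trend is nearly flat in HT-29 and falls steeply in NCM460, where IDH1, FH and MDH1 lie above it.

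The next question was how the balance between cytosolic and mitochondrial enzymes changed. A share within a library does not depend on how libraries are scaled. IDH1 took 79.7% (exact 95% interval 73.7 to 84.9) of the IDH1 and IDH2 fragments in the HT-29 control and 97.2% (95.8 to 98.2) with SCS. In NCM460 it took 23.5% (14.1 to 35.4) in the control and 54.8% (45.7 to 63.6) with SCS. By FPKM, which allow for length, the IDH1 shares were 79.9%, 96.9%, 27.5% and 52.6%, so that IDH2 was the more abundant transcript of the pair in the NCM460 control. Which of the pair was more abundant in NCM460 with SCS was not resolved. The ratio of IDH1 to IDH2 was 8.84-fold higher with SCS in HT-29, a log2 change of 3.14 (2.33 to 3.98), and 3.93-fold higher in NCM460, a log2 change of 1.98 (0.96 to 3.03). IDH1 and IDH2 differ in GC content, and with the trend subtracted the NCM460 change was 0.70 (-0.31 to 1.75), an interval that includes 0. The HT-29 change was then 2.93 (2.12 to 3.76).

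MDH1 took 21.7% (17.4 to 26.5) of the MDH1 and MDH2 fragments in the HT-29 control and 26.9% (21.6 to 32.8) with SCS, and the intervals overlap. In NCM460 its share was 4.10% (2.20 to 6.91) in the control and 19.5% (15.2 to 24.4) with SCS. By FPKM the MDH1 shares were 32.6% and 29.5% in HT-29, in the opposite order to the fragments, and 11.5% and 30.5% in NCM460. The log2 change of the MDH1 to MDH2 ratio was 0.41 (-0.16 to 0.98) in HT-29 and 2.50 (1.57 to 3.52) in NCM460, or 1.79 (0.86 to 2.81) there with the GC trend subtracted. The malate dehydrogenases therefore shifted toward the cytosolic gene beyond counting error in NCM460, and in HT-29 a shift was not detectable at this depth. Whether the lines differ was not tested.

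**Figure D4:**
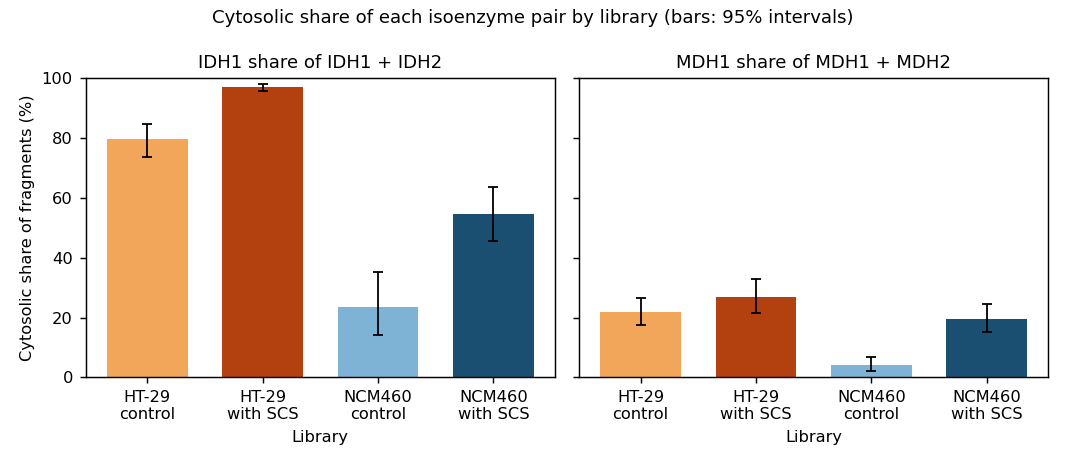
Share of the cytosolic gene in the fragments of each isoenzyme pair, in percent, for IDH1 with IDH2 (left) and MDH1 with MDH2 (right), with 1 bar per library and exact 95% intervals. The IDH1 share is larger with SCS in both lines, and the MDH1 share in the NCM460 control, 4.10%, is the lowest of the 8 bars.

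Across all 9 members, IDH1 and MDH1 together made up 19.6% (17.5 to 22.0) of the fragments in the HT-29 control and 50.7% (48.3 to 53.1) with SCS. Most of this was IDH1, which alone went from 13.8% to 46.6%. In NCM460 the cytosolic share was 4.16% (2.80 to 5.92) in the control and 16.6% (14.1 to 19.5) with SCS, and IDH1 alone went from 2.30% to 8.97%. IDH1 and MDH1 are both low in GC, and these shares were not corrected for it. The median log2 fold change in NCM460 went from 1.56 to 0.99 for the cytosolic and from -0.33 to -0.18 for the mitochondrial members when the GC trend was subtracted. Leaving out the shared CS locus gave 26.5% and 61.8% in HT-29 and 5.64% and 21.5% in NCM460. The mitochondrial isocitrate dehydrogenases were also set against each other. IDH3A took 49.4% (38.4 to 60.5) of the IDH3A and IDH2 fragments in the HT-29 control and 48.9% (33.7 to 64.2) with SCS, a log2 change of the ratio of -0.03 (-1.17 to 1.10). In NCM460 it took 11.9% (4.91 to 22.9) and 20.8% (12.2 to 32.0), a log2 change of 0.97 (-0.55 to 2.61).

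Levels of different genes were compared in the FPKM deposited by the authors, which allow for transcript length. Between libraries these FPKM are not a fixed multiple of the fragments. In HT-29, control and SCS, 169 and 799 fragments of IDH1 stood at 30.5 and 103 FPKM. For MDH2, 260 and 190 fragments stood at 58.6 and 48.6 FPKM. The intervals are counting intervals of the fragments, rescaled to each FPKM, and leave out any other error of the FPKM. In the HT-29 control the CS locus (64.7 FPKM, 57.7 to 72.2) and MDH2 (58.6, 51.7 to 66.2) came first and did not differ beyond these intervals. IDH1 (30.5) and MDH1 (28.3) followed, also with overlapping intervals, then OGDH (21.1), SUCLG1 (18.8), FH (17.7), IDH3A (13.5) and IDH2 (7.65), each overlapping the next. With SCS, IDH1 was first at 103 FPKM (95.9 to 110), apart from the CS locus at 56.1 (50.0 to 62.7) and MDH2 at 48.6 (41.9 to 56.0). FH (7.22), IDH3A (4.86) and IDH2 (3.31) formed the low end, below SUCLG1 at 16.6 (12.9 to 21.1), and each overlapped its neighbor.

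The NCM460 libraries had another order. MDH2 was first in the control at 196 FPKM (175 to 219), apart from the CS locus at 97.1 (83.6 to 112), which was apart from IDH2 at 37.6 (28.1 to 49.3). Below it came OGDH (35.7), MDH1 (25.6), SUCLG1 (23.5), IDH1 (14.2), IDH3A (6.98) and FH (3.99), each overlapping the next. With SCS, MDH2 at 95.2 (83.6 to 108) and the CS locus at 84.3 (72.3 to 97.8) overlapped, and MDH1 was next at 41.8 (31.8 to 53.9). IDH1 was at 25.9, OGDH at 16.3 and IDH3A at 9.80 FPKM, and from MDH1 down each member overlapped the next. IDH1 was thus first and apart from the others in HT-29 with SCS, whereas its place among the lower members of either NCM460 library was not resolved.

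An additive model over the 4 libraries, with a term for the line and a term for SCS, was fitted by edgeR's quasi-likelihood test over 12942 loci. It has 1 residual degree of freedom, and the lines stand in for replicates, which they are not. The SCS term passed the threshold in 9 loci, 0.0695% of those tested, and in none of the members, and 1 member had an unadjusted p under 0.05. That member was IDH1, with a log2 change of 1.84 (SE 0.59), higher in 2 of 2 lines, and an edgeR adjusted p of 0.389. DESeq2 called 35 loci and none of the 4 members to which it gave an adjusted p (CS, IDH1, OGDH and MDH2), with 1 member at an unadjusted p under 0.05 and an adjusted p of 0.0526 for IDH1 at a log2 change of 1.79. DESeq2 gave no adjusted p for the other 5. Over the alternatives the adjusted p of IDH1 ran from 0.0526 (DESeq2) to 0.536 (edgeR with no filter).

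The line term of the same edgeR fit placed 8% of loci higher in HT-29 and 8.21% lower. IDH1 was higher in HT-29 than in NCM460, by a log2 difference of 2.21 (SE 0.59, edgeR adjusted p 0.00287), and IDH2 was lower, by -2.05 (SE 0.64, edgeR adjusted p 0.0136). MDH2 was also lower in HT-29, at -1.57 (SE 0.54, edgeR adjusted p 0.0291). The 6 other members did not pass. DESeq2 called IDH1 and MDH2, and gave IDH2 a log2 difference of -2.14 with an adjusted p of 0.0787.

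The genes around the members were taken from fixed lists, described by counts and medians. The counts of every list stand beside 16.8% of all loci called higher and 14.8% lower in HT-29, and 15.3% and 13.7% in NCM460. With the GC trend subtracted these shares were 14.9% and 15.7% in HT-29, and 5.88% and 5.96% in NCM460. The wider cycle comprised 11 further subunits. In HT-29 none of the 11 was called higher and 3 were called lower, with a median log2 fold change of -0.31. SDHA, the flavoprotein subunit of succinate dehydrogenase, was lowest, with 265 and 139 fragments and -1.15 (-1.47 to -0.86), and the others called were SDHC and IDH3B, the latter a further subunit of the IDH3A enzyme. DLD, the dihydrolipoamide dehydrogenase of several 2-oxoacid complexes, was highest at 0.44 (-0.13 to 1.05) and not called. In NCM460, 4 were called higher and 2 lower, with a median of 0.31. SUCLG2, a beta subunit of succinyl-CoA ligase and partner of SUCLG1, was highest with 4 and 49 fragments, at 2.70 (1.69 to 5.07). SUCLA2, the other beta subunit, had 0 and 12 fragments there, at least 2.88-fold higher against a floor of 3 fragments per library. IDH3G, a regulatory subunit of the IDH3A enzyme, was lowest with 41 and 19 fragments, at -1.47 (-2.45 to -0.77). SDHD shares its values with 4 other genes. After subtraction of the GC trend, 5 of the 11 were called higher and 2 lower in NCM460, and 4 lower in HT-29.

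**Figure D5:**
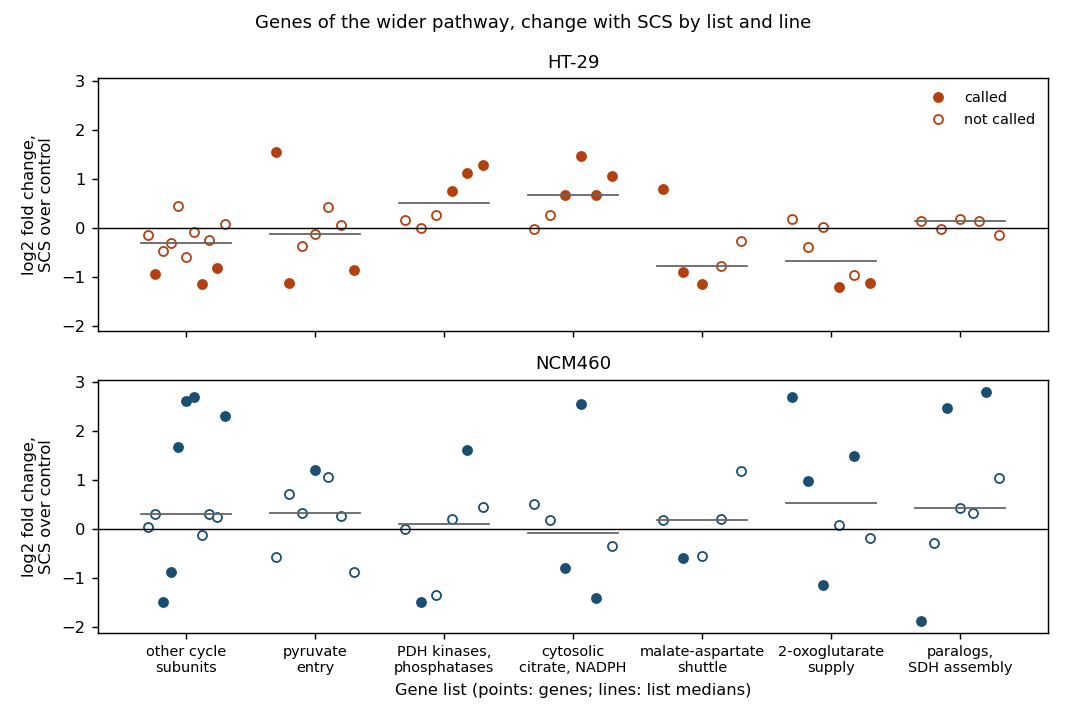
log2 fold change of SCS over control for the genes of 7 lists around the cycle in HT-29 (top) and NCM460 (bottom), with filled points for called genes, open points for the others and lines for list medians. The cytosolic citrate and NADPH list lies at or above 0 in HT-29 except for ACO1 at -0.03, and is split in NCM460.

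The cytosolic enzymes of citrate and NADPH, among which IDH1 belongs by function, gave 4 of 6 called higher and none lower in HT-29, with a median of 0.67. ME1, the cytosolic malic enzyme, was highest, with 78 and 257 fragments and 1.47 (1.12 to 1.87). PGD, 6-phosphogluconate dehydrogenase, stood at 1.05 (0.86 to 1.26). SLC25A1, the mitochondrial citrate carrier, was at 0.66 (0.43 to 0.90), and ACO1, the cytosolic aconitase, was lowest at -0.03. In NCM460, 1 was called higher and 2 lower, with a median of -0.08. ME1 was again highest, with 5 and 52 fragments and 2.55 (1.59 to 4.59). SLC25A1 at -0.79 (-1.24 to -0.38) was called lower, opposite to HT-29. Subtracting the GC trend left 1 gene called in each direction in NCM460, and SLC25A1 lay at -0.04.

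For pyruvate entry, 1 of 7 genes was called higher and 2 lower in HT-29 (median -0.13), and 1 higher and none lower in NCM460 (median 0.32). MPC1 and MPC2 encode partner subunits of the mitochondrial pyruvate carrier, and in HT-29 MPC1 was highest at 1.54 (0.84 to 2.50; 17 and 62 fragments) and MPC2 lowest at -1.12 (-2.27 to -0.26; 28 and 14 fragments). In NCM460, PDHB of the pyruvate dehydrogenase complex was highest at 1.21 (0.42 to 2.28), and pyruvate carboxylase, PC, was lowest at -0.87 (-3.11 to 0.64), not called. After the same subtraction none of the 7 was called in NCM460. Of the 6 kinases and phosphatases that switch pyruvate dehydrogenase off and on, 3 were called higher and none lower in HT-29 (median 0.50), and 1 higher and 1 lower in NCM460 (median 0.12, or 0.01 without PDK4, which had 1 and 2 fragments). The phosphatase PDP1 was called higher in both lines, with 32 and 84 fragments in HT-29, at 1.12 (0.56 to 1.80), and 176 and 752 in NCM460, at 1.61 (1.38 to 1.87). PDP2 was highest in HT-29 at 1.27 (0.73 to 1.95). The kinase PDK2 was lowest in both lines, at -0.01 (-1.23 to 1.23) in HT-29 and, called lower, at -1.47 (-2.91 to -0.55) in NCM460. Subtraction of the GC trend gave 1 of the 6 called higher and 2 lower in NCM460, with a median of -0.85 and PDP1 at 0.63, and 2 called higher in HT-29.

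The malate-aspartate shuttle, in which MDH1 and MDH2 act, had 1 of 5 genes called higher and 2 lower in HT-29 (median -0.78). The cytosolic aminotransferase GOT1 was called higher there, at 0.79 (0.38 to 1.25), and the mitochondrial GOT2 lower, at -0.90 (-1.31 to -0.53). The oxoglutarate carrier SLC25A11 was lowest at -1.14 (-1.94 to -0.50). In NCM460, GOT2 was called lower at -0.59 (-1.05 to -0.16) and no gene higher. The list median there was 0.19, or -0.18 without SLC25A13, which had 0 and 3 fragments, and SLC25A12 was highest at 0.21 (-1.34 to 2.01). GOT2 was not called in NCM460 once the GC trend was subtracted.

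Of the 6 genes of 2-oxoglutarate supply and 2-hydroxyglutarate removal, none was called higher and 2 lower in HT-29 (median -0.68), and 3 higher and 1 lower in NCM460 (median 0.54). D2HGDH, which oxidizes D-2-hydroxyglutarate to 2-oxoglutarate, was lowest in HT-29, with 20 and 9 fragments and -1.20 (-2.70 to -0.18). GPT2, the mitochondrial alanine aminotransferase, was lowest in NCM460 at -1.14 (-2.00 to -0.45). With the GC trend subtracted, 2 were called higher and none lower there, and 3 lower in HT-29.

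Of 8 paralogs and succinate dehydrogenase assembly genes, 5 were compared in HT-29 and none was called (median 0.13), with SDHAF1 highest at 0.17 (-0.54 to 0.92) and ME2 lowest at 0.13 (-0.54 to 0.83) among those at 5 CPM or more. In NCM460, 2 of 7 were called higher and 1 lower, with a median of 0.44, or of 0.74 without MDH1B (3 and 3 fragments) and with SDHAF3 at its bound. SDHAF3 had 0 and 14 fragments, at least 3.36-fold higher against the floor of 3 fragments. OGDHL, the paralog of OGDH, was lowest with 15 and 4 fragments, at -1.87 (-4.43 to -0.73), and had 0 fragments in both HT-29 libraries.

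The pattern of IDH1 over the 4 libraries was compared with those of 3667 loci at a mean of at least 20 CPM in both lines, by the root mean square difference of centered log2 CPM. The nearest was the locus of the long noncoding RNA NEAT1, at a difference of 0.15, with 1011 and 3734 fragments in HT-29 and 84 and 317 in NCM460. SEL1L, a component of endoplasmic reticulum-associated degradation, followed at 0.17, with 105, 424, 10 and 33 fragments. INSIG1, a sterol-regulated protein of the endoplasmic reticulum, was at 0.19, with 162, 1028, 16 and 87 fragments. Likeness over 4 libraries is a description of these libraries.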

How the data were processed

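RNA-seq of HT-29 and NCM460 cells, control and SCS, was analyzed with 1 library per condition. Total RNA was made into libraries with a kit that does not mark strand. The submitters' processing notes name bcl2fastq 2.17.1.14, cutadapt 1.9.1, Bowtie2, HTSeq 0.6.1 and hg19, and the methods name Cuffdiff. Coordinates in the table are on GRCh38, and the starts and ends of all 9 members equal those of GENCODE release 29.

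The authors deposited 1 table with values for every library in 2 units, named count and FPKM. The deposited count columns are a signal, fragment counts divided by a size factor, and whole fragments were recovered for 99.8% to 99.9% of values above 0 (tolerance 0.02 fragments), and for 100% under 200 fragments. The design had assumed whole counts. FPKM values were used as the authors deposited them, for levels between genes and, as log2(FPKM + 1), for an alternative. Of 64962 rows, 26 without a gene name were left out (0.00581% to 0.0352% of fragments), and adjacent rows with identical values were merged into 18650 loci, 1812 of them holding several genes. All columns of values were used.

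Fragments were scaled by TMM (edgeR 4.0.16, R 4.3.3; factors 1.24, 1.50, 0.578 and 0.935), with a prior count of 2 and loci averaging 1 CPM or more in a line were compared. Intervals are exact Clopper-Pearson intervals at 95%, and intervals and floors (3 fragments, 1.25 to 3.85 CPM) cover counting error only. Within a line the count tests could not be fitted. Over both lines, edgeR's quasi-likelihood test on the recovered fragments (additive model, Benjamini-Hochberg, threshold 0.05) called 9 loci for SCS and 2099 for the line, and DESeq2 1.42.0 called 35 and 875. Trends were lowess fits with a span of 0.3, and 98.9% of loci had a GC content. Scripts were tested on simulated data. The alternatives were DESeq2's size factors, total or nuclear fragments, a prior count of 0.5, GC or length trends, thinning to 507692 nuclear fragments, other filters and FPKM.

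The members, lists and rules were chosen with earlier results of these data known. The text names every member, the highest and lowest gene of each list in each line at a mean of 5 CPM or more, genes called in both lines, and the 3 loci nearest to IDH1. Some genes that this rule picks are not reported here, and the list counts include them. Partner subunits, markers and merged or overlapping neighbors were named in addition, after their values were seen.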

Additional observations from a re-analysis of the deposited data

Results flagged for a closer look

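FH was called in opposite directions in the lines, with a log2 fold change of SCS over control of -0.91 in HT-29 (72 and 44 fragments) and 2.24 in NCM460 (4 and 35 fragments). The counting intervals, -1.52 to -0.38 and 1.17 to 4.61, do not overlap, but each line had 1 library per condition and the difference between lines was not tested. With the GC trend subtracted the values were -1.0 and 1.56, and FH kept its call in all 11 settings in both lines.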

How the results depend on the processing

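IDH1 and FH in both lines and MDH1 in NCM460 kept their calls under all 10 alternatives, of which 2 (the filters on low values) leave every member's value as it was and 1 (FPKM) has no interval, with log2 fold changes from 1.72 to 2.27 (IDH1, HT-29), 0.79 to 2.19 (IDH1, NCM460), -1.66 to -0.64 (FH, HT-29), 1.56 to 2.80 (FH, NCM460) and 0.69 to 2.23 (MDH1, NCM460). In HT-29, thinning left 2 members called, where IDH2 (-0.49), IDH3A (-0.78) and MDH2 (-0.57) lost their calls. MDH2 lost it also by total fragments (-0.41) and FPKM (-0.27). With the GC trend subtracted 3 members were called in NCM460, and the log2 change of the IDH1 to IDH2 ratio was 0.70. OGDH and MDH2 also lost their NCM460 calls by total fragments (-0.11 and -0.10), and by that scaling SUCLG1 was called higher (1.04). CS was called lower there with DESeq2's size factors (-0.64) and IDH2 by FPKM (-0.66). Fewer fragments were compared after thinning, which was done in a single random draw. The cause of the other changes was not tested. Total fragments moved the median of all loci from 0.07 to 0.31 in HT-29 and from 0.03 to 0.63 in NCM460, and that scaling called 24.9% of loci higher and 8.82% lower in HT-29 and 32.6% and 2.05% in NCM460. FPKM called 17.4% and 25.5% in HT-29 and 22.3% and 36.8% in NCM460. No paired analysis was possible because each condition has 1 library and the labels carry no replicate numbers. In the additive model no member with an adjusted p was called for SCS under the 4 alternatives, and DESeq2 gave one to only 4 members. Depth limits the members with few fragments, IDH3A and FH in the NCM460 control above all.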
